A study of Mus musculus with 22 samples.

Results

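The genes described here encode the proteins of the cytosolic ribosome. They were chosen by symbol alone, as every row whose name is Rpl or Rps (or Rplp) followed by a number with at most a short suffix, leaving out pseudogene names with "-ps" and the Rps6k kinases. The rule found 85 genes among the 18487 rows of the table, 51 of the large subunit (Rpl) and 34 of the small subunit (Rps). It used no measured value. In GENCODE M21 (mm10) the 85 genes lie on 19 chromosomes, and 82 are protein coding, while Rps3a2 and Rps3a3 are processed pseudogenes and Rps4l is a transcribed processed pseudogene. Poly(A) RNA of E14 cells, a mouse embryonic stem cell line, was sequenced in 22 libraries, 2 for each of 11 groups. The group NC carries no compound name and served as the reference. The other groups are named for Bromosporine, which blocks bromodomains, CPTH2 and Garcinol, which inhibit histone acetyltransferases, Chaetocin, which inhibits SUV39H-type lysine methyltransferases, DZNep, which blocks S-adenosylhomocysteine hydrolase and so many methylation reactions, IOX1, which inhibits oxygenases such as JmjC demethylases, MS023, which inhibits type I arginine methyltransferases, OICR, a label not spelled out, UNC0379, which inhibits the H4 lysine methyltransferase SETD8, and Valproate, which inhibits histone deacetylases. The labels give no dose, exposure time or vehicle, and do not say whether libraries of a group came from separate cultures, so the p-values measure only the spread between these libraries.

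Ribosomal protein genes are among the most strongly transcribed genes of dividing cells, because each ribosome needs a copy of nearly every protein. Their mRNAs typically begin with a C followed by a run of pyrimidines, the terminal oligopyrimidine (TOP) tract, through which growth signalling by mTORC1 adjusts their translation together. Most have many processed pseudogenes, which are copies of the spliced mRNA inserted elsewhere in the genome, and a few have a variant copy made in particular tissues, such as Rpl3l in muscle and Rpl10l and Rpl39l in male germ cells.

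Each value is a read count that was normalized by the authors and rounded to a whole number, called a normalized count below. All libraries had the same median (409) and the same maximum (221616), as full-quantile normalization gives. The depth of a library is therefore not known, and a value near the top of the table follows mainly from a rank. More than 1 gene could hold the maximum in a library, as Rpl4 and Rps2 did in the first DZNep library. The values are thus not 1 ranking of the whole table. All 10 pluripotency markers were present in all libraries, for example Pou5f1 at 25663 to 39262, Nanog at 31970 to 123367 and Utf1 at 823 to 5749. Of the 10, 2 were called higher with DZNep and 1 each with Bromosporine, OICR and Valproate, and none lower with these compounds. Of all genes tested, 10.7%, 1.61%, 0.226% and 5.13% were called higher in that order. The part of the pluripotency markers in the results was not tested. Of the fibroblast markers, Dcn was at 0 in 22 libraries, while Col3a1 ran from 2 to 851 and Postn from 0 to 819. Of the endoderm markers, Sox7 and Foxa2 had no row, and 4 of the 5 others (Gata4, Gata6, Sox17 and Dab2) stayed at 367 or less. Lama1, the other one, ran from 3312 to 12149. The 5 summed to 3600 to 12478 in a library, to 9165 and 5669 in NC and to 6410 and 4536 with DZNep, where 1 was called higher and 1 lower. The 8 fibroblast markers summed to 645 and 1525 in NC, 1734 and 2078 with DZNep, 1677 and 1626 with Valproate and 89 to 1239 in the other groups. With DZNep and with Valproate 2 of the 7 tested were called higher, with Bromosporine 1 was called lower, and the part of these markers in the results of these compounds was not tested. In bulk RNA fewer cells of a type and less RNA per cell cannot be told apart. All 85 genes passed the filter on low values, which 17275 of the 18487 genes passed.

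The sequences that bear on the results are of 2 kinds. The first are variant genes and their parents, shown by the first 60 coding bases of the GENCODE M21 transcripts with the bases that differ in capitals. At most 1.54% of the 31-base stretches of a variant's whole transcript occurred in that of its parent, in the pairs named next. Over the whole coding sequence, Rpl10l was 84.7% identical to Rpl10, Rpl39l 84.97% to Rpl39, Rps27l 76.2% to Rps27, Rpl3l 73.2% to Rpl3, Rpl22l1 66.9% to Rpl22 and Rpl7l1 53.0% to Rpl7.
Rpl3l: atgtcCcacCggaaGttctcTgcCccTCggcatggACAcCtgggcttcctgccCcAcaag
Rpl3: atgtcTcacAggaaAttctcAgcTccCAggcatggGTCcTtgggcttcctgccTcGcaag
Rpl10l: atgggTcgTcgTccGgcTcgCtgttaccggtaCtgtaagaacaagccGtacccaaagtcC
Rpl10: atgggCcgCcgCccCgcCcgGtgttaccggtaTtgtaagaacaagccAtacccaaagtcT
Rpl39l: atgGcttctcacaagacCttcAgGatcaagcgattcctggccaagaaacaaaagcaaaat
Rpl39: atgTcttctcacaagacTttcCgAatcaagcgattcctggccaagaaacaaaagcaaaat
Rps27l: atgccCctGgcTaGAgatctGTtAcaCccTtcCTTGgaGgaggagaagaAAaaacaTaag
Rps27: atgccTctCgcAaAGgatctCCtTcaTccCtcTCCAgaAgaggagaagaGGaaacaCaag

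The second kind are genes with near-identical copies, which decide how far a value can be tied to a gene. The 891 coding bases of Rpl5 are 100% identical to those of Gm15500, a transcribed processed pseudogene (chr7:114705217-114706235, minus strand), so the line below, the first 60 coding bases, holds for both. Rps13 and its processed pseudogene Rps13-ps1 (chr8:87047689-87048226, plus strand) differ at 2 of 453 coding bases, both of which lie in the stretch from coding base 370 to 429 and are shown in capitals.
Rpl5 and Gm15500: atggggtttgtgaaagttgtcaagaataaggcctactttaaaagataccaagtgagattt
Rps13: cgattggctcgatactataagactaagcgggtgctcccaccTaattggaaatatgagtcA
Rps13-ps1: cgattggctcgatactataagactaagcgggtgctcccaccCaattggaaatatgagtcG

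Shared sequence was widespread, counted on either strand and with overlapping genes included. The median gene had 63.4% of the 31-base stretches of its transcript in transcripts of other genes. The range ran from 0% for Rpl3l to 99.0% for Rpl35, and 61 of the 85 genes shared 50% or more. Not all of this was with copies: Rpl35 shared most with Wdr38 (61.9%), which overlaps it on the opposite strand. Rps10 shared most with RPS10-NUDT3 (91.0%), which overlaps it on the same strand. For 49 genes the table itself listed a copy or overlapping gene that held 20% or more of these stretches, and for 10 of them such a copy had a higher median over the libraries than the gene. Rpl5, a large-subunit protein that binds the smallest ribosomal RNA, had a median of 1665, against 59593 for Gm15500. The median of Rps13 was 717 and that of Rps13-ps1 was 18552. Rps12 had a median of 2061 with Rps12-ps3 at 29454, Rpl27 had 2940 with Rpl27-ps3 at 25663, and Rpl10 had 6813 with Rpl10-ps3 at 41831. The low place of these genes in the table thus goes with a high place of a copy with the same coding sequence, or nearly the same, and the reads of gene and copy cannot be told apart with certainty.

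**Figure D1:**
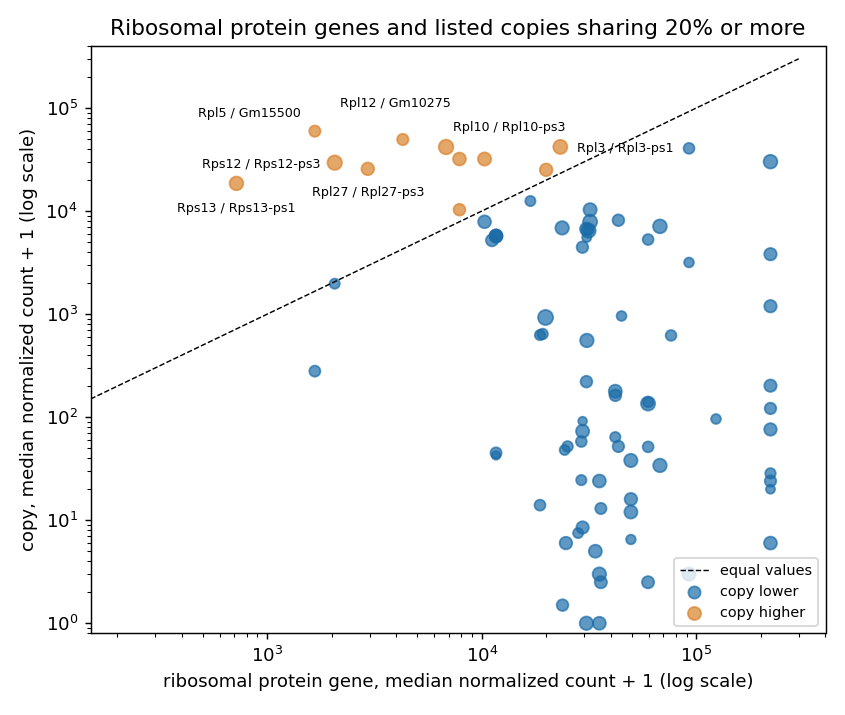
Median normalized count plus 1 of ribosomal protein genes (horizontal, log scale) and of copies or overlapping genes that are listed in the table and hold 20% or more of the gene's 31-base stretches (vertical, log scale). Each point is a pair, its area grows with the share, and points above the dashed line of equal values, such as Rpl5 with Gm15500 (1665 and 59593), are copies listed higher than the gene.

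Levels were compared per kilobase of transcript, since the genes differ in length. The median gene stood at 45016 normalized counts per kilobase, and the range ran from 41.1 for Rpl3l to 222060 for Rps2, a small-subunit protein near the mRNA entry site. After Rps2 came Rplp1, a stalk protein, at 185132 per kilobase, then Rpl23a at 136121 and Rps14 at 127583. Among the 100 rows with the highest median normalized count, 26 were ribosomal protein genes, and 72 of the 85 genes had a median of 10000 or more. The order between genes is that of the normalized counts and need not be that of the RNA. At such levels few distinct values exist. The 1870 values of the 85 genes took 528 distinct values, and 29 genes took fewer than 10 distinct values over the 22 libraries.

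The clearest case was Rps2 and Rpl13a, a large-subunit protein often used as a reference gene in quantitative PCR. In 14 libraries Rps2 stood at 221616 and Rpl13a at 123486, and in the other 8 the same values were exchanged. IOX1 was among the latter in both libraries, so that Rpl13a differed from NC by 0.84 and Rps2 by -0.84 on the log2 scale, neither of which passed the test (limma adjusted p = 0.425 and 0.426). Such a difference is the step between the values that these genes exchanged. Rplp0, the base of the ribosomal stalk and another common reference gene, was at 92442 in 21 of 22 libraries and at 76167 in the first DZNep library. Of the 850 differences from NC (85 genes and 10 compounds), 56 were exactly 0.

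Some promoters of these genes show the start sequence named above. RefSeq promoter windows (GRCm38.p6, 250 bases before to 50 after the start) matched 62 of the 85 genes, with 74 starts. A C followed by 4 pyrimidines stood exactly at the start in 17.6% of the 74 windows and in 2.51% of all 32851. The ETS core CGGAAG, on either strand, was found in 59.5% against 16.9%, the YY1 site ATGGCGG, on either strand, in 18.9% against 4.05%, the E-box CACGTG in 10.8% against 7.15%, and TATAAA in the 40 bases before the start, on the coding strand, in 1.35% against 2.31%. These matches are letters in a window, not measured binding, and annotated starts can miss the used start by some bases. The windows from 60 bases before to 30 after the start are shown for Rps6, Rps18 and Rpl15, with the pyrimidine tract in capitals. Rps6 is the small-subunit protein phosphorylated by the S6 kinases, Rps18 sits in the head of the small subunit, and Rpl15 belongs to the core of the large subunit.
Rps6 (chr4:86857338-86857427, minus strand): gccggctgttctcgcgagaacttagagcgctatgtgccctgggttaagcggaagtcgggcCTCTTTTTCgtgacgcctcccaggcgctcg
Rps18 (chr17:33955636-33955725, minus strand): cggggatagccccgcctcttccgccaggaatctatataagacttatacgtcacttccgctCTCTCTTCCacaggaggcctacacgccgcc
Rpl15 (chr14:18270957-18271046, minus strand): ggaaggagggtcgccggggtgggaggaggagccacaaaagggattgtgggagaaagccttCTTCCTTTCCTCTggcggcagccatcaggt

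Summed over the 85 genes, ribosomal protein transcripts took 7.14% to 9.58% of the normalized counts of a library. The NC libraries stood at 8.04% and 8.19%. OICR was the lowest group, at 7.48% and 7.14%, with both libraries below both NC libraries. Garcinol (9.40% and 8.97%), IOX1 (9.58% and 8.81%) and MS023 (9.23% and 8.65%) had both libraries above both NC libraries. The 2 libraries of a group could differ by more than these groups differ from NC. Valproate had 9.54% in replicate 1 and 7.39% in replicate 2, and Chaetocin had 9.39% and 7.47%. CPTH2, DZNep and UNC0379 also had their lower library under the higher NC library, and Bromosporine had 8.03% and 8.19%. The share is given as a description, with no test. Because the normalization gives every library nearly the same set of values, the share shows the place of these genes within that normalization. It says nothing on the RNA content of a cell.

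**Figure D2:**
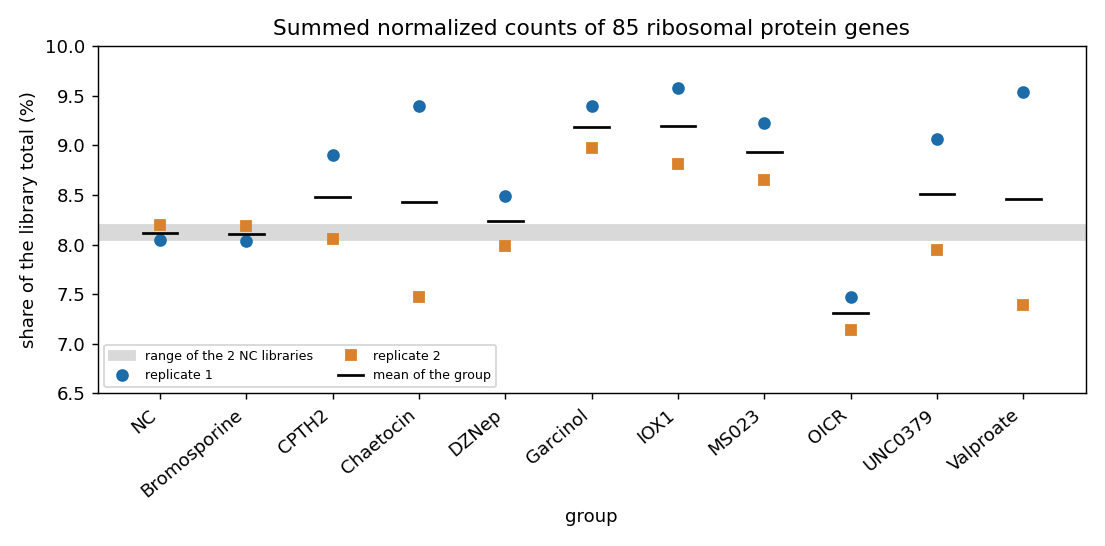
Share of each library's summed normalized counts (%, vertical axis cut to 6.5 to 10) taken by the 85 ribosomal protein genes, by group. Circles are replicate 1, squares replicate 2, bars the mean of the 2 libraries, and the grey band the range of the NC libraries. Both OICR libraries, at 7.48% and 7.14%, lie below the band. Replicate 2 of Chaetocin, Valproate, DZNep (7.98%) and UNC0379 (7.95%) and replicate 1 of Bromosporine (8.03%) do as well, the last 3 by little.

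Differences from NC were tested with limma on log2(normalized count + 1), fitted to all 17275 genes. Calls needed a p under 0.05 after Benjamini-Hochberg adjustment over those genes. Few ribosomal protein genes were called. With DZNep, 23.6% of all genes tested were called and 5 of the 85 ribosomal protein genes (5.88%). With Valproate, 10.3% of all genes were called and 2 of the 85 (2.35%), and with Bromosporine 5.4% of all genes and 1 of the 85 (1.18%). MS023 gave 2.21% of all genes and 1 of the 85. OICR gave 0.637% of all genes and 2 of the 85 (2.35%), both lower, in which direction 0.411% of all genes were called. In each of these comparisons the count is so small that 1 gene more or less would change the share markedly.

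None of the 85 genes was called by limma with CPTH2 (0.00579% of all genes called), Chaetocin (0.0174%), Garcinol (0.00579%), IOX1 (0.127%) or UNC0379 (0%). At an unadjusted p under 0.05 the numbers were 0 with CPTH2, 1 with Chaetocin (1.18%), 3 with Garcinol (3.53%), 12 with IOX1 (14.1%) and 2 with UNC0379 (2.35%). The share of all genes at that level was 0.944%, 4.72%, 3.62%, 12.4% and 6.08% in the same order. With DZNep, Valproate, Bromosporine and MS023 it was 9.41%, 3.53%, 5.88% and 8.24% of the 85 genes. Of all genes it was 35.4%, 24.1%, 19% and 15% with these compounds. The median log2 difference of the 85 genes from NC was 0 with Bromosporine and DZNep, between 0.06 and 0.11 with CPTH2, Chaetocin, MS023, UNC0379 and Valproate, 0.21 with Garcinol and with IOX1, and -0.20 with OICR, while the median of all genes stayed between -0.04 and 0.01.

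**Figure D3:**
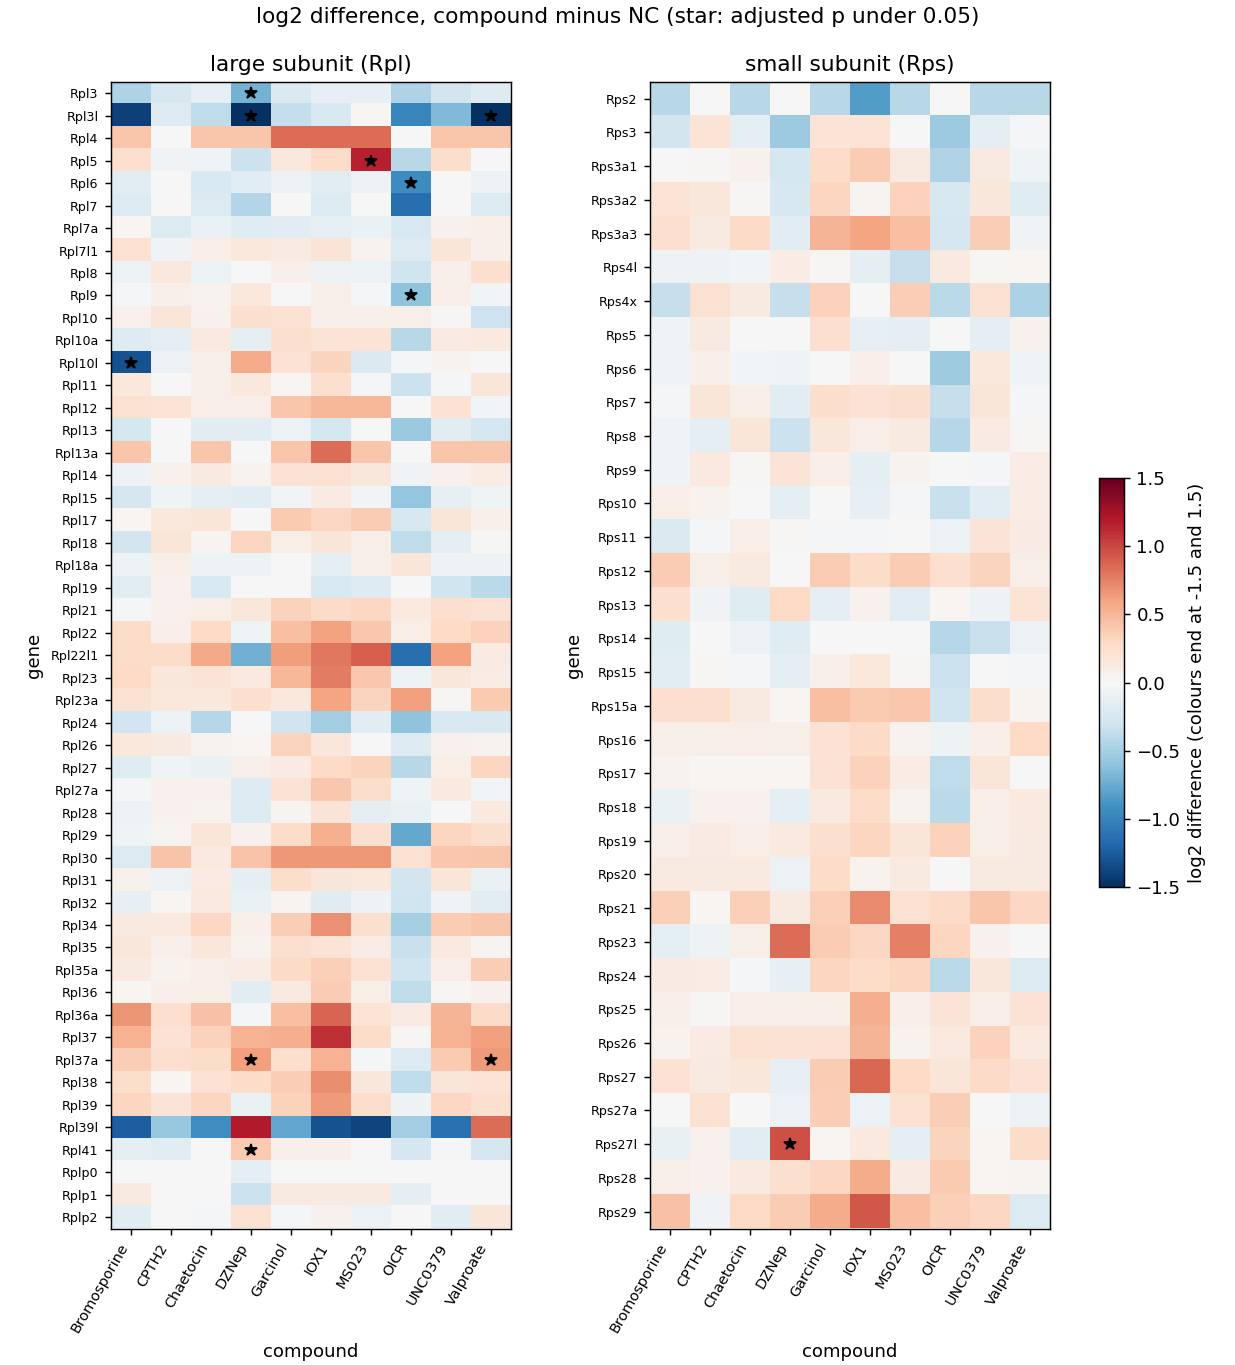
log2 difference from NC of each of the 85 genes (rows, large subunit in the left panel, small subunit in the right) with each of the 10 compounds (columns), red for higher and blue for lower than NC. Stars mark the 11 differences with an adjusted p under 0.05. Rpl3l and Rpl39l show the deepest colours over many columns, Rplp0 is nearly blank, and the OICR column is mostly blue.

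The 5 genes called with DZNep moved in both directions. Rps27l, a copy of the small-subunit protein Rps27 that p53 is known to induce, lies on chr9:66946086-66949516 (plus strand). Its normalized counts were 15374 and 19230 in NC and 32104 and 35363 with DZNep, a log2 difference of 0.97 ± 0.19 (SE, n = 2 and 2; limma adjusted p = 0.00231). Both DZNep libraries exceeded every other library, the next highest being the second OICR library at 26729. For its parent Rps27 the NC libraries had 18762 and 15924 and the DZNep libraries 18762 and 13327, a difference of -0.13 with an adjusted p of 0.821.

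Rpl37a and Rpl41 encode small, basic proteins of the large subunit. Rpl37a (chr1:72711290-72713813, plus strand) had 19138 and 20665 in NC and 27687 and 33603 with DZNep (log2 difference 0.62 ± 0.15 SE, limma adjusted p = 0.00876). Rpl41 (chr10:128548114-128549305, minus strand) had 35317 and 36642 in NC and 49443 and 44959 with DZNep (0.39 ± 0.13 SE, limma adjusted p = 0.0381). For both genes the DZNep libraries lay above the NC libraries. The calls rested on few libraries: that of Rpl37a was lost without NC replicate 1 (adjusted p = 0.0763) or DZNep replicate 2 (0.0676), and that of Rpl41 without NC replicate 1 (0.179), NC replicate 2 (0.0905) or DZNep replicate 1 (0.167).

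Rpl3 and its variant Rpl3l were lower with DZNep. Rpl3, a large-subunit protein next to the peptidyl transferase centre, lies on chr15:80077791-80091868 (minus strand). It had 29399 and 25574 in NC and 17174 and 16296 with DZNep (log2 difference -0.71 ± 0.19 SE, limma adjusted p = 0.0168). Rpl3-ps1, which is 99.8% identical to its coding sequence, moved the same way, from 44959 and 41903 to 30833 and 29454. The sum of both fell by 0.60 on the log2 scale. Rpl3 also had both libraries below both NC libraries, without a call, with Bromosporine (18252 and 21827), CPTH2, OICR (19688 and 20208) and UNC0379. Against the mean of the other groups, its DZNep difference was -0.49. The call of Rpl3 was lost without NC replicate 1 (adjusted p = 0.133) and without either DZNep library (0.0502 without replicate 1, 0.0668 without replicate 2).

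Rpl3l, the muscle form (chr17:24727820-24736143, plus strand), was the lowest of the 85 genes, with 72 and 90 in NC, and it shares no 31-base stretch with another gene. With DZNep it had 12 and 22 (log2 difference -2.24 ± 0.40 SE, limma adjusted p = 0.00153), and with Valproate 23 and 23 (-1.76 ± 0.40 SE, adjusted p = 0.0137). Bromosporine libraries had 23 and 39 (-1.40, adjusted p = 0.0649), so that both lay below NC without passing the test. The same held for OICR (43 and 38), IOX1 (68 and 69) and UNC0379 (36 and 71). At values this low the log2 scale rests on a few reads, and the Valproate call was lost without any of the 4 libraries of the comparison (adjusted p from 0.0553 to 0.0954).

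Rpl37a was also called with Valproate, at 33603 and 28536 against 19138 and 20665 in NC (log2 difference 0.64 ± 0.15 SE, limma adjusted p = 0.0150). Both IOX1 libraries (26592 and 30736) were above both NC libraries as well, without a call (0.52, limma adjusted p = 0.180). The same held, without a call, for Bromosporine (24664 and 26592), CPTH2, Chaetocin, Garcinol and UNC0379 (25574 and 26592), but not for MS023 and OICR. Against the mean of the other groups, the Rpl37a differences were 0.37 with DZNep and 0.39 with Valproate. Without NC replicate 1, NC replicate 2 or Valproate replicate 1 the Valproate difference had an adjusted p of 0.106, 0.0520 and 0.126. DZNep and Valproate share the NC libraries, so the calls of Rpl37a and Rpl3l with both are not separate observations of NC.

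Rpl10l, the retrogene copy of Rpl10 (chr12:66283379-66284401, minus strand), was the gene called with Bromosporine. Its normalized counts were 4991 and 5756 in NC and 1834 and 2538 with Bromosporine (log2 difference -1.31 ± 0.22 SE, limma adjusted p = 0.00456). Both were lower than every library of the other 10 groups, whose lowest was 4540 in the first MS023 library. Rpl10 itself, an X-linked gene whose protein joins the large subunit late, had 5351 and 7687 in NC and 6269 and 7192 with Bromosporine (0.07, adjusted p = 0.904). Without Bromosporine replicate 1 the Rpl10l difference was -1.08 with an adjusted p of 0.0589.

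Rpl5 was the gene called with MS023. It lies on chr5:107900502-107909005 (plus strand), where its exons overlap those of Fam69a on the other strand. It had 1352 and 1697 in NC and 3842 and 3018 with MS023 (log2 difference 1.17 ± 0.16 SE, limma adjusted p = 0.00503), and no library of another group exceeded 1927. Gm15500, whose copy of the coding sequence is printed above, had 59593 and 49547 in NC and 67764 and 54032 with MS023. The sum of Rpl5, Gm15500 and Fam69a was 61227 and 51541 in NC and 71927 and 57355 with MS023, a log2 difference of 0.19 with overlapping libraries. Rpl11, which binds the same ribosomal RNA and with Rpl5 can hold MDM2, had 33603 and 36561 in NC and 35221 and 33603 with MS023 (-0.03, adjusted p = 0.968). Without NC replicate 1 the Rpl5 difference was 1.00 with an adjusted p of 0.0565.

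**Figure D4:**
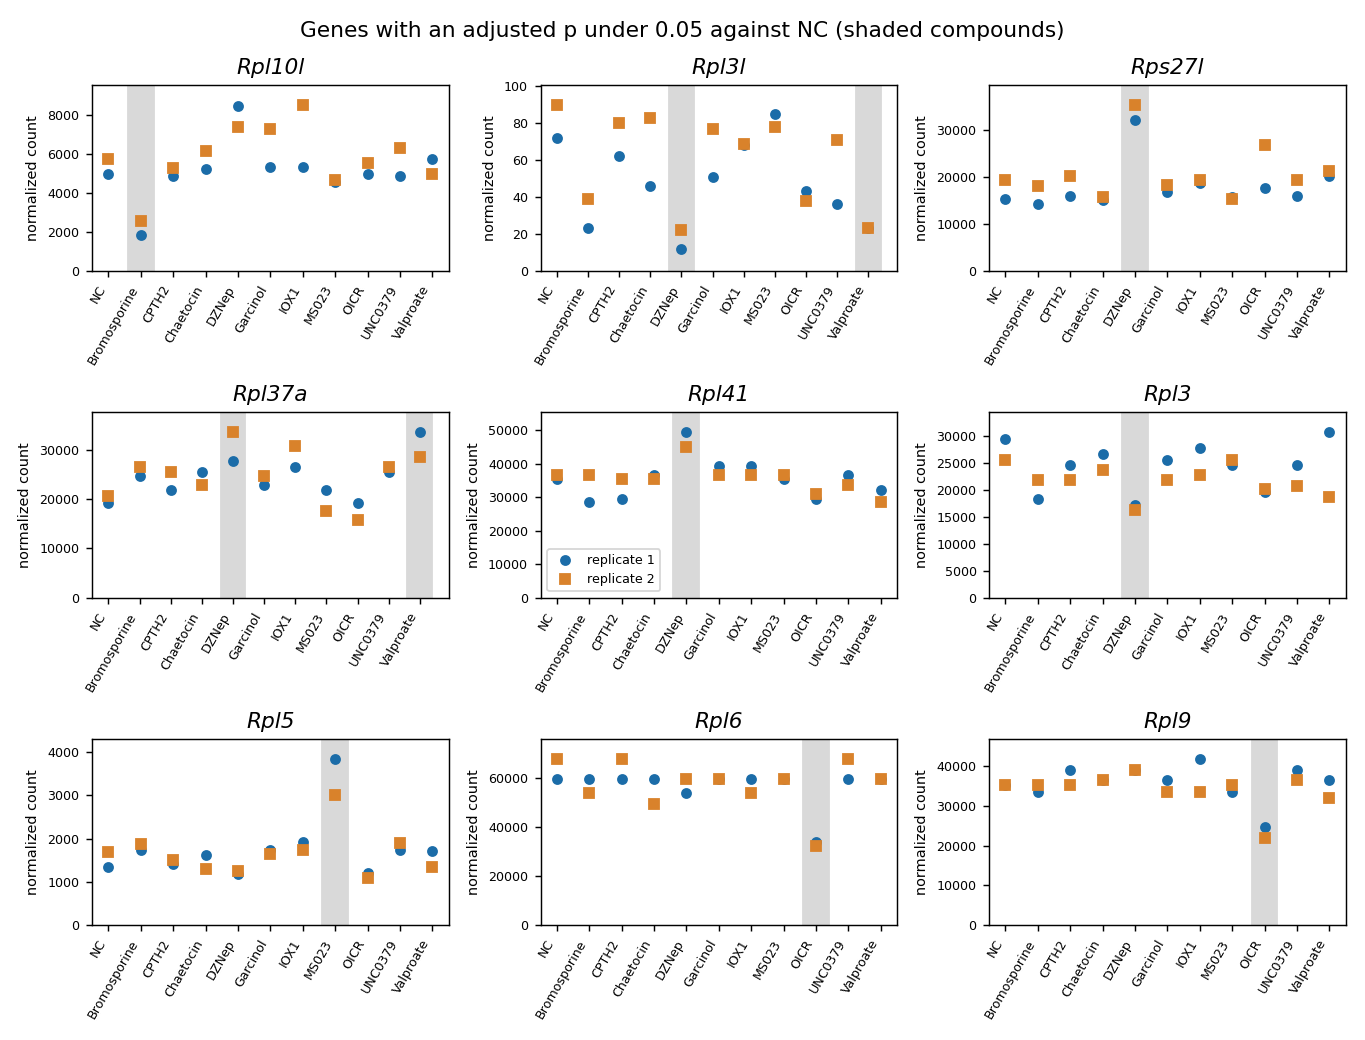
Normalized counts of the 9 genes with an adjusted p under 0.05 against NC in at least 1 compound, by group (horizontal) on linear axes that start at 0. Circles are replicate 1, squares replicate 2, and shading marks the compounds called. Rpl10l with Bromosporine (1834 and 2538), Rps27l with DZNep (32104 and 35363), Rpl5 with MS023 (3842 and 3018) and Rpl6 with OICR (33781 and 32104) stand apart from all other groups.

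OICR was the compound with most ribosomal protein genes below NC: 55 of the 85 were below, 23 above and 7 at exactly 0. The median was -0.24 over the 51 large-subunit genes, 38 of them below NC, and -0.04 over the 34 small-subunit genes, 17 of them below. Rpl6 and Rpl9, both large-subunit proteins, were called. Rpl6 (chr5:121204481-121209241, plus strand) had 59550 and 67722 in NC and 33781 and 32104 with OICR (log2 difference -0.95 ± 0.12 SE, limma adjusted p = 0.00397), and no library of another group was under 49504. Rpl9 (chr5:65388364-65391444, minus strand) had 35221 in each NC library and 24664 and 21827 with OICR (-0.60 ± 0.12 SE, limma adjusted p = 0.0343), with 31970 as the lowest value elsewhere.

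Rpl7 and Rpl15, further large-subunit proteins, missed the threshold. Rpl7 had 123367 in each NC library, and with OICR it had 59405 and 53841 (-1.13, adjusted p = 0.0649), and Rpl15 at 30736 and 33603 against 21827 and 21208 (-0.58, adjusted p = 0.0619). At an unadjusted p under 0.05 there were 21 ribosomal protein genes with OICR (24.7%, against 10.7% of all genes), 20 of them lower and 1, Rps19, higher. Of the 20, 14 were Rpl genes. The calls rested on single libraries: without OICR replicate 2, Rpl6 had an adjusted p of 0.0618 and no gene of the 85 was called, and Rpl9 lost its call without any of the 4 libraries (adjusted p from 0.0803 to 0.313).

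At the other end, Garcinol had 66 genes above NC and 13 below, and IOX1 had 63 above and 19 below. With IOX1, the widest difference above NC was that of Rpl37, a large-subunit protein. It had 16883 and 21350 in NC and 36715 and 45109 with IOX1 (log2 difference 1.10 ± 0.32 SE, limma adjusted p = 0.183). Rps27 had 18762 and 15924 against 32104 and 30880 (0.87, adjusted p = 0.303). Rps25, needed for translation from some internal ribosome entry sites, had 27687 and 26592 against 35221 and 44793 (0.55, adjusted p = 0.226). Rpl38, linked to selective translation in the embryo, had 7876 and 9012 against 15350 and 12107 (0.69, adjusted p = 0.330). In each of these both IOX1 libraries exceeded both NC libraries, and none passed the test in the fit without the replicate number as a term.

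The stalk proteins, which recruit the elongation factors, were not called with any compound. Rplp1 ranged from 59503 to 92381 and stood at 92381 in 13 libraries, and Rplp2 ranged from 24752 to 39294. Rps27a, made as a fusion with ubiquitin, ranged from 59405 to 92251, and Rps6 from 35363 in the second OICR library to 76167. Rps18 ranged from 25663 to 49443 and Rpl10a from 20707 to 41888, each with its lowest value in the second OICR library and its highest in the first Valproate library.

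Rpl39l, Rpl22l1, Rpl10l and Rpl3l had a wider range over the libraries than their parents, Rps27l had about the same range as Rps27, and Rpl7l1 had a narrower range than Rpl7. Rpl39l had the widest range of the 85 genes, from 551 in the first IOX1 library to 9907 in the second DZNep library, with an SD within groups of 0.91 on the log2 scale, against a median of 0.21 over the 85 genes. It was at 1929 and 3636 in NC, 3667 and 9907 with DZNep (1.19, adjusted p = 0.323) and 738 and 1412 with MS023 (-1.37, adjusted p = 0.487). Its parent Rpl39 ranged from 9979 to 22763. Rpl22l1, the paralogue of Rpl22, ranged from 1594 with OICR to 9300 with MS023, and Rpl22 from 8298 to 18732. It had 4477 and 3598 in NC, 2101 and 1594 with OICR (-1.13, adjusted p = 0.396) and 9300 and 5993 with MS023 (0.90, adjusted p = 0.419). Rpl7l1, a biogenesis factor related to Rpl7, ranged from 5728 to 8581, and Rps4l, a retrocopy of the X-linked Rps4x, from 11490 to 17228, while Rps4x ranged from 49547 to 123593. Rpl39l, Rpl22l1, Rpl7l1 and Rps4l were called with no compound in the fit without the replicate number as a term.

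Over the 11 groups together, an F test found a difference for 10 of the 85 genes (11.8%), while 29.7% of all genes tested were called. They were Rpl3l, Rpl5, Rpl6, Rpl9, Rpl10l, Rpl15, Rpl37a, Rpl41, Rps3a2 and Rps27l. Rpl5 had the lowest adjusted p (0.000547). Rps3a2, an intronless copy of Rps3a1 listed at a median of 31970 against 7865.5 for Rps3a1, ranged from 23680 to 39193 and was, like Rpl15, called against NC with no compound.

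More of the 85 genes were called between the replicate numbers than with any compound. The numbers were compared over all 22 libraries and each compound on 2 libraries against 2, so these counts do not compare sizes. With the groups as terms in the fit, 40 of the 85 genes (47.1%) were lower in replicate 2 than in replicate 1, against 22.8% of all genes, and 8 (9.41%) were higher, against 29.9% of all genes. The median difference was -0.16 on the log2 scale for the 85 genes and 0.03 for all genes. Medians of the 85 genes against NC were wider with Garcinol and IOX1 (both 0.21) and with OICR (-0.20). What the numbers stand for is not given in the labels. The summed share of the 85 genes was lower in replicate 2 in 9 of the 11 groups, the exceptions being NC and Bromosporine. Within replicate 1, the median difference from NC was 0.31 with Valproate and 0.25 with Chaetocin. Within replicate 2 it was -0.16 and -0.13, so the direction of these groups against NC depended on the replicate number. For Garcinol and IOX1 it was positive within both numbers (0.27 and 0.10, 0.29 and 0.12), and for OICR negative within both (-0.07 and -0.25).

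Among single genes, Rpl39l was higher in replicate 2 in 11 of 11 groups (log2 difference 1.21 ± 0.12 SE, limma adjusted p = 1.98e-05), as was Rpl27 (0.48 ± 0.05 SE, adjusted p = 2.83e-05). Rpl27-ps3, 100% identical to Rpl27 over the coding sequence and listed higher, did not share this steady direction. It had 26685 and 24723 in NC and 23780 and 24723 with Bromosporine, against 2276 and 3470 and 2111 and 2892 for Rpl27. Reads of the 2 cannot be told apart with certainty. Rps6 was lower in replicate 2 in 11 of 11 groups (-0.39 ± 0.05 SE, adjusted p = 6.95e-05), and so were Rpl12 (-0.48), Rpl23 (-0.46), Rpl39 (-0.46), Rpl17 (-0.41) and Rps27 (-0.40). Rpl22l1 had the widest fall (-0.66 ± 0.10 SE, adjusted p = 0.000168) and was higher in replicate 2 in 1 group. Rpl39 and its variant Rpl39l therefore differed between the numbers in opposite directions. Transcripts of the 85 genes are short, with a median length of 751 bases against 2612 over the tested genes with a transcript in GENCODE M21. Across those 16795 genes, which are not independent, Spearman's rho of the replicate difference was -0.03 with length and 0.10 with GC content. The part of length and GC content in the difference was not tested.

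**Figure D5:**
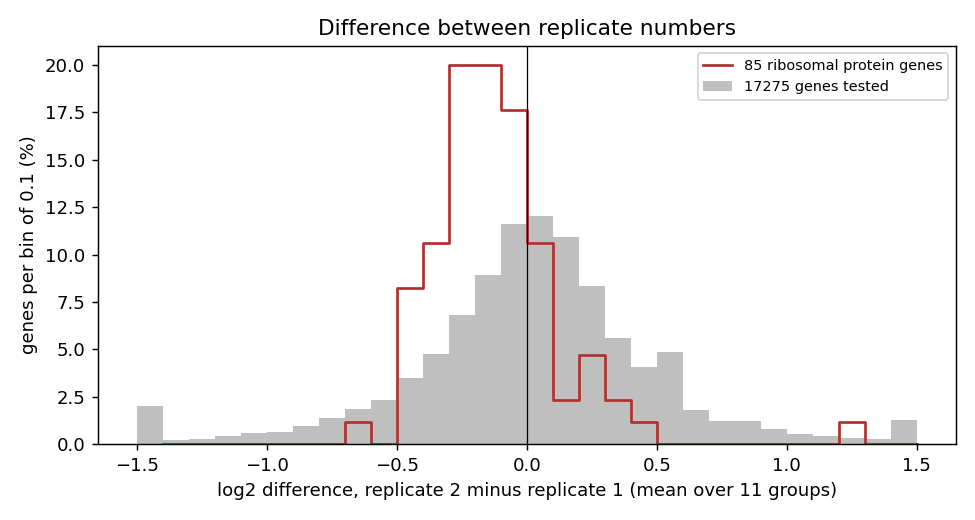
log2 difference between replicate 2 and replicate 1, averaged over the 11 groups, for the 85 ribosomal protein genes (red line) and all 17275 genes tested (grey bars), as the percentage of genes per bin of 0.1. Values beyond the axis are counted in the outermost bins. The red line lies mostly left of 0, with a median of -0.16, and the point near 1.2 is Rpl39l.

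Other genes of the translation apparatus were counted for comparison. Of 78 mitochondrial ribosomal protein genes, which serve the organelle's own ribosomes, 23 rose and 1 fell with DZNep, with a median of 0.33, and 4 rose and 1 fell with Valproate. Of all genes tested, 10.7% rose and 12.8% fell with DZNep, and 5.13% rose and 5.18% fell with Valproate, so the counts with Valproate are near those shares or below them. Between replicate numbers, 33 of the 78 were higher in replicate 2 and 6 lower, against 29.9% and 22.8% of all genes tested. Of 28 translation factors and other genes with TOP mRNAs, 1 rose and 3 fell with DZNep and 1 fell with Valproate, with a median of -0.06 with DZNep. Among 18 genes of growth signalling to the ribosome, 3 rose and 2 fell with DZNep, 1 rose with MS023 (0.863% of all genes rose) and 1 fell with Valproate. Of 27 tested ribosomal protein pseudogenes named "-ps", 2 fell with DZNep (median -0.22). The 5 tested ribosomal proteins with other names, such as Rpsa, had no call with any compound (limma), and their medians lay between 0 and 0.07. The median of the 85 genes with DZNep, 0, lay between those of the pseudogenes and the mitochondrial ribosomal proteins.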

How the data were processed

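The authors deposited 1 table of scores, here read counts per gene normalized by them and rounded to whole numbers, for 22 libraries of poly(A)-selected RNA, and a second table with their group means, which was not used. Per the labels, Bowtie2 2.2.5, RSEM and mm10 were used, and the study's methods pair these tools with EDASeq at its full setting. The use of strand in counting is not stated. All columns matched a sample title (0 unmatched). Groups and replicate numbers came from the titles. Depth is unknown, so no counting interval was given, and 482 genes were at 0 in all libraries.

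Values were analysed as log2(normalized count + 1) with limma 3.58.1 (R 4.3.3). Genes with 10 or more in at least 2 libraries were kept. The fit had 11 group means over all 22 libraries (11 residual degrees of freedom), variances were moderated with a trend, and p-values (two-sided) were adjusted by Benjamini and Hochberg within each comparison. The fit was tested on simulated data. Named genes were, for each compound, up to 4 rises and 4 falls among called genes with both libraries beyond both NC libraries and a group mean of 100 or more, with the variant genes and their parents, the stalk proteins, Rpl5, Rpl11, Rps27a, Rpl13a, Rps18, Rps6, Rpl10a, Rpl38 and Rps25. Any other gene was named after its values were seen. The members and gene lists were chosen with earlier results of these data known. Positions, coding sequences and shared 31-base stretches were taken from the principal transcript of each gene in GENCODE M21 with Python 3.11.15 and Biopython 1.88, and promoters from RefSeq (GRCm38.p6). Plots were drawn with matplotlib 3.10.9. Alternatives were an offset of 10, no filter, median-ratio rescaling, fewer libraries, a replicate block, another reference and leaving out libraries.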

Additional observations from a re-analysis of the deposited data

How the results depend on the processing

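The 11 called differences kept their direction in all 110 refits and lost the threshold in 34. None was lost with an offset of 10, without the filter, with the replicate block or with the other groups' mean as reference, and 1 was lost with median-ratio rescaling (Rpl9 with OICR, adjusted p = 0.0536 by limma). All 11 were lost when the fit held only the compound and NC libraries, where 4 libraries leave 2 groups of 2, and the numbers of ribosomal protein genes called were then 0 with Bromosporine, DZNep, MS023, OICR and Valproate. Median-ratio rescaling left 1 gene called with OICR. With the other groups' mean as reference, 12 genes were called with DZNep (14.1%, against 34% of all genes) and 5 with OICR (5.88%, against 0.55%). With each library left out in turn, the number called ran from 0 to 2 with Bromosporine, from 2 to 5 with DZNep, from 0 to 1 with MS023, from 0 to 2 with OICR and from 0 to 2 with Valproate, and from 6 to 13 for the F test over groups. The lowest numbers came without Bromosporine replicate 1, without NC replicate 1 (DZNep and MS023), without OICR replicate 2 (OICR and the F test) and without NC replicate 2 or Valproate replicate 1. The cause was not tested.

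With the replicate number as a block, the genes called were 3 with Bromosporine (3.53%, against 16.5% of all genes), 11 with DZNep (12.9% against 43%), 8 with IOX1 (9.41% against 5.34%; 6 higher and 2 lower), 3 with MS023 (3.53% against 10.2%), 8 with OICR (9.41% against 4.09%) and 4 with Valproate (4.71% against 26.7%), and 39 in the F test (45.9% against 65.9%). With IOX1 the block put Rpl37 (limma adjusted p = 0.0395), Rps27 (0.0397) and Rpl39l (0.0319) past the threshold and left Rps25 (0.0689) and Rpl38 (0.0661) short of it. Differences between replicates correlated positively between all 55 pairs of groups (across genes, 0.0535 to 0.298), above 0.1 in 51 of them. Since not every pair passed 0.1 and the labels do not say what the numbers mark, the numbers were not taken to pair the libraries. The number of genes that differ between replicates was 48, and 47 to 55 under the other settings. The cause was not tested.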
